A study of Homo sapiens with 15 samples.

Results

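Follistatin, activin subunits, activin receptors and the proteins that damp SMAD signalling were followed in HepG2 cells with and without transfection. HepG2 is an established cell line from a human hepatocellular carcinoma. The 10 transcripts were the binding proteins FST and FSTL3, the activin subunits INHBA, INHBB and INHBE, the receptors ACVR1B, ACVR2A and ACVR2B, and the SMAD inhibitors SMAD7 and SKIL. They were selected by symbol from the 41412 rows of the deposited count matrix. Each symbol had 1 row, and all 10 were among the 18380 genes with enough counts to be tested. The set was drawn up knowing that FST was lower after transfection. Comparisons with untransfected cells are therefore given as a description of these members, without p-values, and support nothing further.

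RNA was measured in 5 groups of 3 libraries, all from wild-type HepG2 cells of 1 line, lysed 48 h after the start of transfection. The groups were untransfected cells and cells given 1 µg of eGFP mRNA (coding for enhanced green fluorescent protein) with the NanoLNP reagent. That mRNA was non-cloaked, weak-cloaked (0.5 h at 25 °C in 0.1 M of the reagent CR-3), medium-cloaked (1 h at 30 °C in 0.5 M) or strong-cloaked (2 h at 37 °C in 1 M). The series asks what cloaking the mRNA does to gene expression. No group given particles without mRNA was analysed here, so effects of reagent and mRNA cannot be told apart. The labels call the replicates biological without naming separate cultures, and p-values measure the spread between these libraries only.

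Activins are secreted dimers of inhibin beta subunits and belong to the TGF-beta superfamily. They bind type II receptors (ACVR2A, ACVR2B), which phosphorylate type I receptors such as ACVR1B, and these in turn phosphorylate SMAD2 and SMAD3. Follistatin and FSTL3 bind activins outside the cell and keep them from their receptors, SMAD7 blocks the type I receptor, and SKIL (SnoN) represses SMAD target genes in the nucleus. SMAD7 and SKIL are themselves SMAD targets and act as negative feedback. In liver, activin A restrains hepatocyte growth, and follistatin and INHBE are secreted by hepatocytes.

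Promoter sequence from RefSeq (GRCh38.p14) is shown for 4 members whose levels differed after transfection, FST and SKIL lower and FSTL3 and INHBB higher, so that their base composition and motif matches can be compared. The window searched was the 250 bases before the RefSeq transcript start. It is printed whole for SKIL and INHBB. For FST and FSTL3, whose windows run into a protein-coding transcript of GENCODE, the match is printed with 10 bases on either side. The SKIL window also runs past the GENCODE start of its gene, at 170357678. By GENCODE the FST match lies within the gene and the FSTL3 match spans its start, so the positions below hold for the RefSeq starts only. Promoter entries matched 9 of the 10 members, with 12 start sites in all. Capitals mark a match to any of 7 motifs searched on both strands.
FST, chr5:53480459-53480485, plus strand: aaatgtcaccTGATTCAcactgaactt
SKIL, chr3:170357465-170357714, plus strand: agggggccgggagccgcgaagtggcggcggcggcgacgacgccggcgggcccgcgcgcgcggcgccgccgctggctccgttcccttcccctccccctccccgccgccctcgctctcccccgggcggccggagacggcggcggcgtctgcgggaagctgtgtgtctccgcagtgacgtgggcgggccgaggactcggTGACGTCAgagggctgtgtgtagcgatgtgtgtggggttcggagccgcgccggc
FSTL3, chr19:676353-676378, plus strand: ccgcgggaccTTTATAgggagcgccg
INHBB, chr2:120345886-120346135, plus strand: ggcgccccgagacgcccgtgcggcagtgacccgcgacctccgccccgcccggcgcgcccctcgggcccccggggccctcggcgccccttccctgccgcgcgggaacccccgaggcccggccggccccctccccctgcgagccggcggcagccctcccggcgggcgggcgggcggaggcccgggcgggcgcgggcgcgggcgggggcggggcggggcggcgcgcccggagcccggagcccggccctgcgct
The motifs were the SMAD palindrome GTCTAGAC, the shorter SMAD motif CAGACA, AP-1 (TGANTCA), the cyclic AMP response element (TGACGTCA), FOXO (GTAAACA), the C/EBP-ATF element (TGATGNAA) and the TATA box (TATAAA). None of these contains another. FST had an AP-1 match whose first base lay at -160 relative to the start, a motif held by 6.57% of 35116 promoter windows of the same length. SKIL had a cyclic AMP response element at -54 (1.65% of windows). In FSTL3 a TATA match on the reverse strand began at -29 (10.7%). INHBB held no match. The 4 windows were rich in G and C, at 60% (FST), 78.4% (SKIL), 80% (FSTL3) and 89.6% (INHBB). Of the remaining 8 windows, INHBA and the second SMAD7 start held a TATA match and the second ACVR1B start the shorter SMAD motif, which 13.6% of windows hold. No member's window held the SMAD palindrome (0.182% of windows). By GENCODE the windows of INHBA, ACVR2A and SMAD7 and the second ACVR1B window lie inside the gene. For INHBA, ACVR2A and SMAD7 the sequence before the GENCODE start was therefore not searched. Matches and absences hold only for the windows searched. A match describes letters and does not show that a factor binds there.

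Library totals ran from 57128519 to 78548789 counts. Values below are CPM, read counts normalised to library size after TMM scaling, which sets libraries to the bulk of their genes, and group values are mean ± SD (n = 3). With total-count scaling the median log2 fold change of all tested genes between transfected and untransfected cells moved by -0.225, and changes are relative to that bulk. Weak-cloaked replicate 1 stood apart, at -51.6 on the first principal component against -70.5 to -68.6 in untransfected and -7.81 to 44.1 in the other 11 transfected libraries. Hepatocyte markers, among them ALB at 4490 to 6920 CPM, were present in every library, although TTR reached only 6.88 CPM. The 12 hepatocyte markers summed to 18800 to 21700 CPM in untransfected and 19800 to 25700 in transfected libraries, with 2 called higher and 3 lower. Of 10 fibroblast markers, THY1 and FAP were at 0 in every library, COL1A2 did not exceed 0.11 CPM, and 0 of the list were called higher and 1 lower in transfected cells. The summed fibroblast level was 18.4 to 23 CPM in untransfected and 16 to 21.7 in transfected libraries. The summed level of 8 endothelial markers was 12.9 to 13.7 CPM untransfected and 19.3 to 31.5 transfected, with 2 called higher, 1 lower and CLEC14A at 0 throughout. For 10 leukocyte markers it was 1160 to 1580 and 943 to 1340, nearly all from LYZ, with 2 called higher, 0 lower and FCGR3A at 0 throughout. For 10 markers of other epithelia it was 10.5 to 14.4 and 15.5 to 26.4, with 2 called higher, 1 lower and TP63 at 0. All 12 hepatocyte markers had enough counts to be tested, but only 7 fibroblast, 6 endothelial, 8 leukocyte and 5 other epithelial markers did. The calls above are out of these numbers, not out of the list sizes. By the same criterion 10.4% of the 18380 genes were higher in transfected cells and 12.7% lower. The part of these markers in the results was not tested.

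FST, which encodes follistatin (ENSG00000134363, chromosome 5, 53480409 to 53487134 on GRCh38), was the member that differed most between untransfected and transfected cells. The 3 untransfected libraries had 51.1, 30.1 and 80.6 CPM, a 2.67-fold spread between the lowest and the highest. Non-cloaked libraries had 8.38, 10.2 and 8.31 CPM, weak-cloaked 14.6, 8.96 and 9.95, medium-cloaked 9.64, 9.34 and 11.5, and strong-cloaked 9.76, 12.3 and 13.9. All 12 transfected libraries lay below all 3 untransfected ones, and the highest transfected value, in weak-cloaked replicate 1, was less than the lowest untransfected value. The log2 fold change of the mean of the 4 transfected groups was -2.36 ± 0.20 (SE), a 5.13-fold difference, and the groups taken singly gave -2.59 ± 0.31 (non-cloaked), -2.27 ± 0.30 (weak), -2.41 ± 0.30 (medium) and -2.17 ± 0.30 (strong). Since RNA came from whole cultures, fewer cells of a kind and less RNA per cell cannot be told apart here or below.

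FSTL3, the second activin-binding protein (ENSG00000070404, chromosome 19, 676365 to 683399), was higher after transfection by a small margin. It had 83.4, 89.6 and 78.5 CPM in untransfected libraries and, in the 12 transfected ones, 95.2 at the lowest, a median of 111.6 and 139.8 at the highest. The 2 sides did not overlap, and weak-cloaked replicate 1 was the lowest transfected library. Group means were 111.6 ± 6.51 (non-cloaked), 116.2 ± 22.4 (weak), 104.6 ± 5.13 (medium) and 121.5 ± 13.6 CPM (strong). The pooled log2 fold change was 0.43 ± 0.11. It was 0.20 ± 0.09 and no longer called with total-count scaling, 0.27 with offsets for transcript length and GC content, and 0.38 ± 0.13, again not called, without untransfected replicate 3.

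Of the activin subunits, INHBE and INHBB were higher in all 12 transfected libraries than in any untransfected one, while INHBA was close to the limit of detection. INHBE encodes the activin E subunit, made mainly in liver (ENSG00000139269, chromosome 12, 57452323 to 57459280). It had 36.3, 34.6 and 26.2 CPM in untransfected libraries. The non-cloaked libraries had 52.1, 57.8 and 60.8 CPM, weak-cloaked 50.1, 49.6 and 57.3, medium-cloaked 49.5, 46.3 and 52.3, and strong-cloaked 63.1, 64.5 and 55.8. The replicates of each group were close to each other, and the lowest transfected library stood above the highest untransfected one. Its log2 fold change was 0.76 ± 0.11, a 1.69-fold difference.

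INHBB, the beta B subunit of activin B (ENSG00000163083, chromosome 2, 120346143 to 120351808), had 4.12, 6.91 and 5.29 CPM in untransfected libraries. The transfected values were 12, 11.2 and 8.96 CPM (non-cloaked), 12.4, 11.8 and 12.1 (weak), 12.1, 11.4 and 12.6 (medium) and 12.2, 13.6 and 8.42 (strong). Non-cloaked replicate 3 and strong-cloaked replicate 3 were the lowest of the transfected libraries. The log2 fold change was 1.09 ± 0.18, or 2.12-fold. With total-count scaling it was 0.86, and that of INHBE 0.53, both still called.

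INHBA, the beta A subunit of activin A (ENSG00000122641, chromosome 7, 41667168 to 41705834), had 11 to 29 counts per untransfected library and 0 to 40 per transfected library. The highest value, 0.55 CPM in non-cloaked replicate 1, and 3 libraries without a count (weak-cloaked replicate 3 and medium-cloaked replicates 2 and 3) all fell among transfected cells. Its pooled log2 fold change of -0.67 had a 95% interval of -2.78 to 1.44, which includes differences of several-fold. The inhibin alpha gene INHA, whose product turns beta subunits into inhibins, had 2.98 ± 0.88 CPM in untransfected cells and a median of 3.2 in transfected libraries. INHBC, the neighbour of INHBE in the genome, had 1.86 ± 0.46 and a median of 1.08 CPM. Neither passed the test of transfected against untransfected cells (edgeR's quasi-likelihood test, adjusted p = 0.863 and 0.097). Both come from lists chosen with earlier results of these data known, so the values only describe these genes.

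The receptors moved less. ACVR1B, the type I receptor ALK4 (ENSG00000135503, chromosome 12, 51951667 to 51997078), had 46.2, 44.4 and 43.5 CPM in untransfected and 35.6 to 48.1 CPM in transfected libraries (median 42.1). The ranges overlapped, and the log2 fold change was -0.08 ± 0.09. With total-count scaling it was -0.31 ± 0.08 and was called. ACVR2A, a type II receptor (ENSG00000121989, chromosome 2, 147844517 to 147930826), had 6.6, 6.57 and 9.13 CPM in untransfected libraries. Its transfected values were 6.05 at the lowest, 8.08 at the median and 11.5 at the highest, and medium-cloaked replicates were nearly equal at 9.36, 9.24 and 9.35. The log2 fold change was 0.12 ± 0.18, -0.11 with total-count scaling and 0.53 with length and GC offsets, and it was called under none of the 3. The gene overlaps ORC4 on the opposite strand by 430 bases, and the strand setting of the counting is not given in the sources used here.

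ACVR2B, the other type II receptor (ENSG00000114739, chromosome 3, 38453851 to 38493142), had 16.1, 19.2 and 23 CPM in untransfected libraries. Weak-cloaked replicate 1 had 21 CPM and the other 11 transfected libraries 7.61 to 15, so 11 of 12 lay below every untransfected library. The log2 fold change was -0.60 ± 0.19, and -0.68 ± 0.16 without weak-cloaked replicate 1. The call did not hold without any 1 of the 3 untransfected libraries (-0.72, -0.61 and -0.47), without 7 of the 12 transfected ones, or with the length and GC offsets (-0.26 ± 0.11). ACVR2B has the longest annotated transcript of the 10 members (11821 nt, 45.7% GC). The 1179 tested genes of its length and GC quartiles had a median log2 fold change of -0.20. An antisense gene, ACVR2B-AS1, overlaps it by 970 bases with at most 227 counts in a library.

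Of the SMAD inhibitors, SKIL (ENSG00000136603, chromosome 3, 170357678 to 170396835) was lower in transfected cells. Untransfected libraries had 8.64, 8.73 and 15.4 CPM. Non-cloaked libraries had 5.05, 2.44 and 4.3 CPM, weak-cloaked 10.8, 5.35 and 3.49, medium-cloaked 5.59, 5.08 and 4.89, and strong-cloaked 4.61, 2.94 and 3.32. Weak-cloaked replicate 1 lay within the untransfected range, and the other 11 transfected libraries lay below it. The log2 fold change was -1.22 ± 0.28, and -1.36 ± 0.23 without weak-cloaked replicate 1. Without untransfected replicate 3, the highest of the 15 libraries, it was -0.89 ± 0.32 and no longer called. SKIL has a long transcript of low GC content (7182 nt, 33.4% GC), and the 1676 tested genes of the same quartiles had a median of -0.40. With the length and GC offsets its log2 fold change was -0.68 ± 0.18, still called.

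SMAD7 (ENSG00000101665, chromosome 18, 48919853 to 48952052) was not called in the pooled comparison. It had 52.1, 47.1 and 42.2 CPM in untransfected libraries. The non-cloaked libraries had 21, 48 and 37.6 CPM, weak-cloaked 47.6, 30.6 and 36.2, medium-cloaked 28.4, 36.2 and 30.2, and strong-cloaked 39.4, 44.1 and 27.5. Of the 12 transfected libraries 9 lay below every untransfected one, and non-cloaked replicates differed more than 2-fold. The log2 fold change was -0.41 ± 0.20. With total-count scaling it was -0.63 ± 0.21 and was called. None of the 3 SMAD7 start sites in the promoter table held the SMAD palindrome or the shorter SMAD motif within its window. By GENCODE all 3 windows lie inside the gene, so the sequence before the GENCODE start was not searched.

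**Figure D1:**
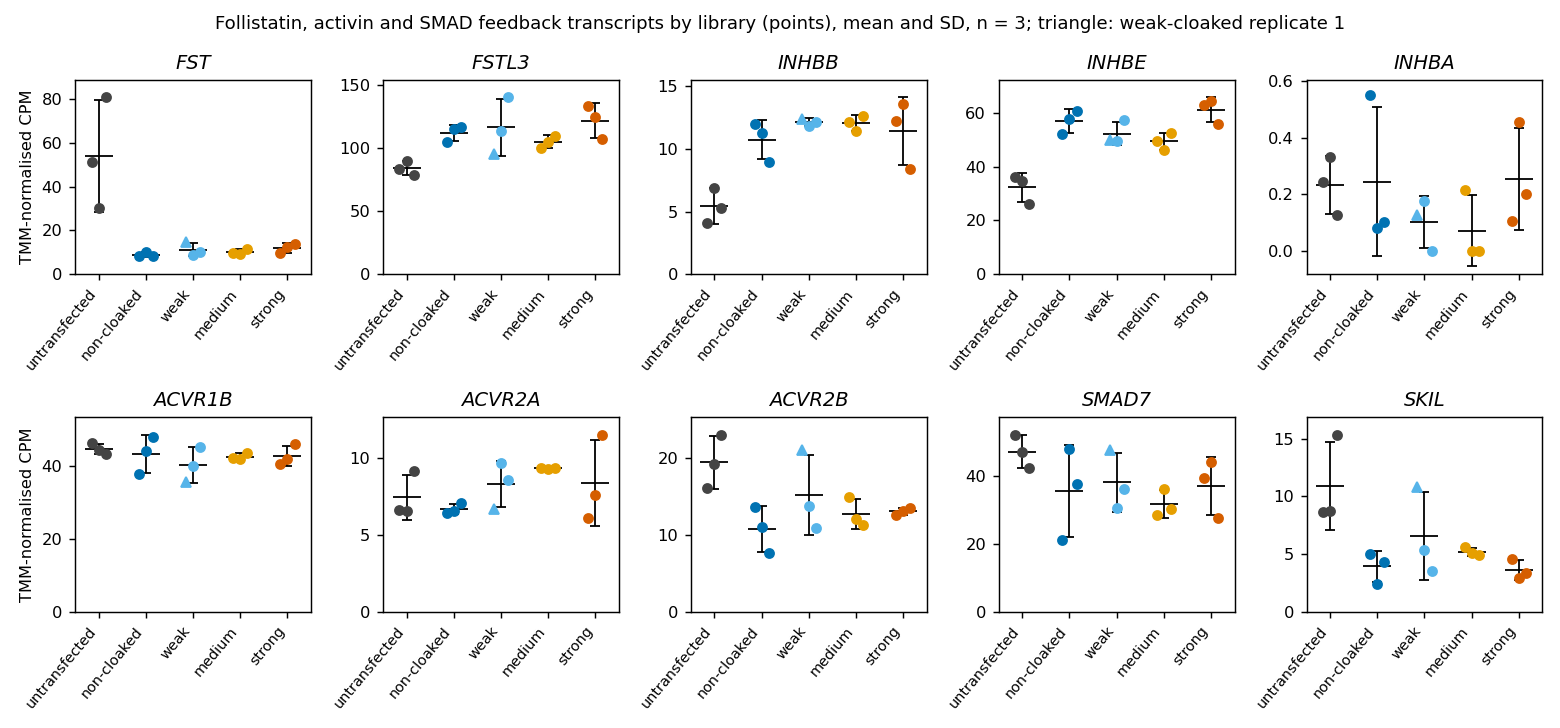
TMM-normalised CPM (vertical axes, linear) of the 10 transcripts in the 5 groups; points are libraries, the triangle is weak-cloaked replicate 1, and bars are mean ± SD (n = 3). FST lies at 30.1 to 80.6 CPM in untransfected and at 8.31 to 14.6 CPM in transfected libraries, while INHBE and INHBB are above the untransfected range in all 12 transfected libraries.

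Counted over the set, 6 of the 10 members were called at an adjusted p below 0.05 when the 4 transfected groups, averaged, were set against untransfected cells, beside 23.1% of all 18380 tested genes. FSTL3, INHBB and INHBE were the 3 called higher (10.4% of all genes), and FST, ACVR2B and SKIL the 3 called lower (12.7%). The 3 higher members also had every transfected library above every untransfected one, which held for 5.12% of genes. FST had every transfected library below, which held for 5.74% of genes. Against untransfected cells, 4 members were called in the non-cloaked group (6.5% of genes), 2 higher (3.84%) and 2 lower (2.66%). In the weak-cloaked group 3 were called (3.29%), 2 higher (2.11%) and 1 lower (1.19%). The medium-cloaked group also had 3 (13.7%), 2 higher (6.25%) and 1 lower (7.49%), and the strong-cloaked group had 5 (15.1%), 3 higher (7.99%) and 2 lower (7.11%). FST, INHBB and INHBE were called in each of these 4 comparisons, which share the untransfected libraries. Nothing is read from these counts, because the contrast was known when the members were chosen. Without untransfected replicate 3 the pooled count was 3 (FST, INHBB and INHBE), beside 14.8% of all genes tested in that fit. With total-count scaling 7 members were called, 2 higher (INHBB and INHBE) and 5 lower (FST, ACVR1B, ACVR2B, SMAD7 and SKIL), beside 28.9% of all genes. Under that scaling 17.8% of all genes called were higher, in place of 44.9%.

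**Figure D2:**
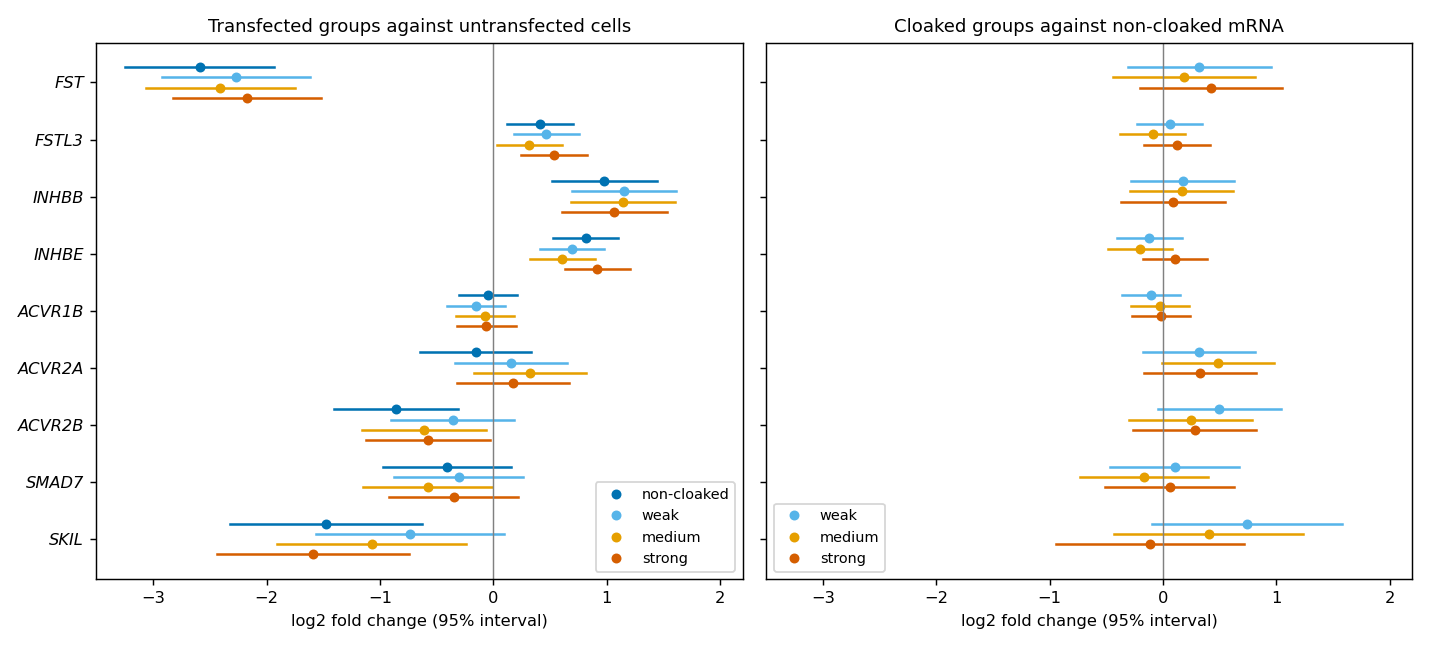
Log2 fold changes with 95% intervals (horizontal axes) for 9 members, INHBA left out, for each transfected group against untransfected cells (left) and for the cloaked groups relative to non-cloaked (right). On the left FST lies between -2.59 and -2.17 in the 4 groups, and on the right every interval includes 0.

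Per kilobase of annotated exon, which allows genes to be compared with each other, the order of the transcripts was different in transfected cells. In untransfected cells FSTL3 led at 27.3 ± 1.81 RPKM (CPM divided by exon length in kilobases), followed by FST at 18.2 ± 8.54, INHBE at 10.7 ± 1.79, SMAD7 at 9.36 ± 0.99 and ACVR1B at 7.85 ± 0.25. FST ranged from 10.2 to 27.1 RPKM there, so its place relative to FSTL3 and INHBE varied with the library, and INHBE and SMAD7 overlapped as well. INHBB (1.7 ± 0.44), SKIL (1.4 ± 0.50), ACVR2B (1.24 ± 0.22) and ACVR2A (1.1 ± 0.22) overlapped with their neighbours in this order, and INHBA was last at 0.03 RPKM. In non-cloaked cells FSTL3 stood at 36.4 ± 2.12 RPKM and INHBE at 18.9 ± 1.47, with no overlap of libraries between them. ACVR1B (7.62 ± 0.92) and SMAD7 (7.06 ± 2.7) overlapped, and so did INHBB (3.35 ± 0.49) and FST (3.01 ± 0.35). INHBB and FST were also next to each other in the weak-, medium- and strong-cloaked groups. These levels rest on the summed length of all annotated exons, and a gene whose cells use a shorter transcript would be higher. ACVR2B, with 15744 nt of exon, had the longest.

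As a ratio within each library, FST over INHBE per length was 1.43, 0.886 and 3.13 in the untransfected libraries. It was 0.139 to 0.179 in the non-cloaked, 0.176 to 0.297 in the weak-cloaked, 0.198 to 0.223 in the medium-cloaked and 0.157 to 0.253 in the strong-cloaked group. Such a ratio does not depend on the scaling of libraries, and no transfected library came near the lowest untransfected one. FSTL3 over FST was 0.943 to 2.88 in untransfected libraries and 6.3 to 13.6 in transfected ones, with the lowest transfected value in weak-cloaked replicate 1. FSTL3 was thus the more abundant of the 2 binding protein transcripts in all 12 transfected libraries and in 2 of the 3 untransfected ones.

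Cloaking grades were compared with each other in the same fit over all 15 libraries, and no member passed the test in any of these comparisons. The numbers called among all genes were also close to 0. Of 18380 genes, 1 was called in weak- against non-cloaked cells (0.00544%), 0 in medium- and 0 in strong- against non-cloaked cells (0%), 0 for a linear trend over the 4 groups (0%), and 1 for any difference among the 4 (0.00544%), by edgeR's quasi-likelihood test. At an unadjusted p below 0.05 there were 721, 1746, 663, 781 and 753 genes, and none of the 10 members was among them. DESeq2, run on the 27236 genes with any count, called 19, 70, 15, 20 and 51 genes in these comparisons and again no member, and put 1 member, ACVR2A in medium- against non-cloaked cells, under that unadjusted level. Its adjusted p was 0.46 in DESeq2 and 0.536 in edgeR, the lowest adjusted p of any member in these comparisons.

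The intervals give a range of differences, not what would be called after adjustment over all genes. Simulated data were used for the latter, with changes set in genes of mean log2 CPM of at least 1. There the comparison of strong- with non-cloaked libraries recovered 7.46% of 1.5-fold and 35.8% of 2-fold changes. Counts were drawn independently around a common mean for each gene, with no library set apart as weak-cloaked replicate 1 is. The simulated comparison had 95 calls and the measured one 0, and more calls loosen the adjusted threshold. Recovery in the measured data may therefore be lower. In strong- against non-cloaked cells the log2 fold change of FST was 0.42 ± 0.29 (SE), with a 95% interval of -0.21 to 1.05 and an adjusted p of 1 in edgeR's test. FST means were 8.95 ± 1.05 CPM in non-cloaked, 11.2 ± 3.03 in weak-cloaked, 10.2 ± 1.17 in medium-cloaked and 12 ± 2.08 in strong-cloaked cells, and the ranges of neighbouring groups overlapped. INHBA, with its few counts, had an interval of -2.73 to 2.81 in the same comparison. Of the other 9 members SKIL had the widest, -0.95 to 0.72, and ACVR1B the narrowest, -0.27 to 0.24. INHBE had -0.18 to 0.39 and INHBB -0.37 to 0.54. Over the 9 members other than INHBA, differences from the non-cloaked group ran from -0.12 (INHBE) to 0.74 (SKIL) for weak, from -0.20 (INHBE) to 0.48 (ACVR2A) for medium and from -0.12 (SKIL) to 0.42 (FST) for strong cloaking. The SKIL difference in weak-cloaked cells was 0.17 ± 0.34 without weak-cloaked replicate 1. The SKIL intervals for weak (-0.09 to 1.57) and medium cloaking (-0.43 to 1.23) included a 2-fold difference, and a missing call does not show that the grades act alike.

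Weak-cloaked replicate 1 did not take the same position for every member. SKIL at 10.8 CPM and ACVR2B at 21 CPM lay within the untransfected range (8.64 to 15.4 and 16.1 to 23) and above the other 11 transfected libraries (2.44 to 5.59 and 7.61 to 15). INHBB at 12.4 and INHBE at 50.1 CPM lay within the range of those 11 (8.42 to 13.6 and 46.3 to 64.5) and above the untransfected range. FST at 14.6 and FSTL3 at 95.2 CPM fell between the 2 ranges. SMAD7 at 47.6 and ACVR2A at 6.67 CPM lay within both, and ACVR1B at 35.6 CPM was lower than in any other library. In all, 5 of the 10 members lay outside the range of the other 11 libraries, beside 40.4% of all tested genes, and 2 of these lay within the untransfected range, beside 18.4%. Without this library the weak-cloaked group had 5 members called against untransfected cells in place of 3, with FSTL3 (0.59 ± 0.12) and SKIL (-1.31 ± 0.36) added, while the share of all tested genes called was 21.3% in place of 3.29%.

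**Figure D3:**
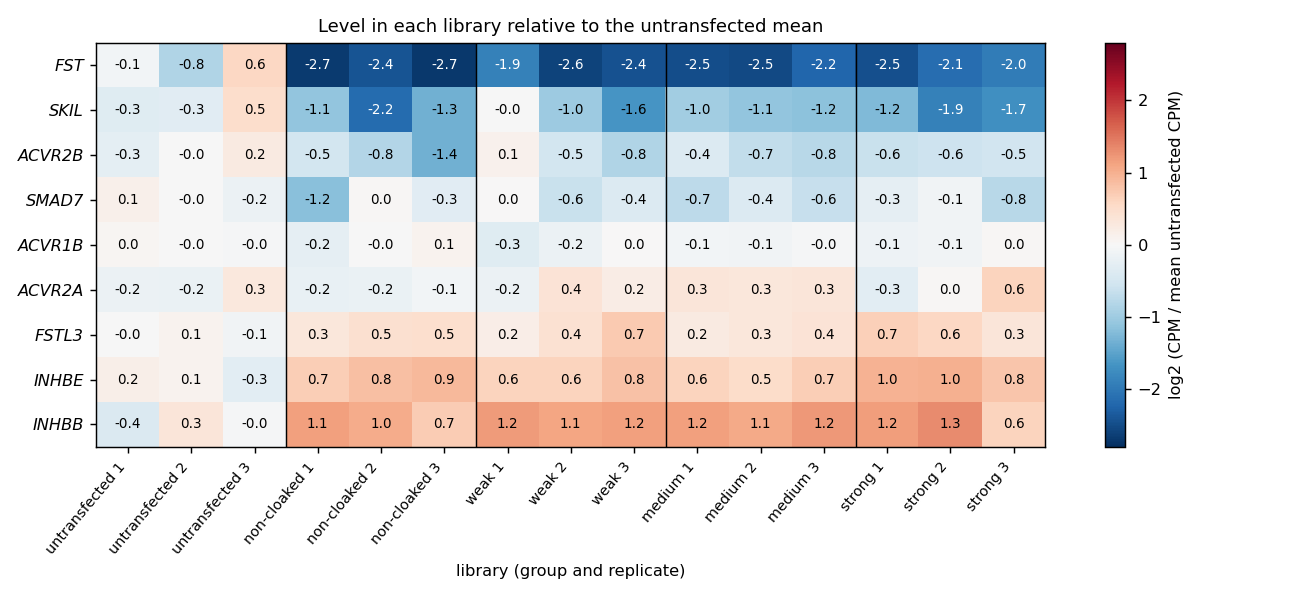
Log2 ratio of CPM in each of the 15 libraries (columns) to the untransfected mean (colour and printed value) for 9 members (rows). The FST row is lowest in all 12 transfected libraries, and the weak 1 column is near 0 for SKIL (10.8 CPM) and ACVR2B (21 CPM) but not for INHBB (12.4 CPM) or INHBE (50.1 CPM).

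The untransfected libraries also differed among themselves. Untransfected replicate 3 had the highest values of FST, SKIL, ACVR2B and ACVR2A and the lowest of INHBE, FSTL3, SMAD7, ACVR1B and INHBA. The spread from lowest to highest was 2.67-fold for FST, 1.78-fold for SKIL and 1.06-fold for ACVR1B. Without that replicate the log2 fold change of FST was -1.96, its smallest size in any of the 22 alternatives run, and FST stayed called in each of them.

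Other genes of the TGF-beta superfamily, grouped by role, went both ways after transfection. Of 122 listed genes 117 could be tested, and 13 rose and 16 fell in transfected against untransfected cells, 24.8% in all beside 23.1% of all tested genes. Their median log2 fold change was -0.11 beside -0.05 for all genes. By list, the share called was 24% of ligands, 25% of receptors and co-receptors and 8.7% of extracellular binding proteins. It was 14.3% of SMAD genes, 32% of intracellular regulators and 38.1% of target genes, each beside the same 23.1%. The balance of directions depended on the scaling. Under total-count scaling 13 were higher and 28 lower, beside 28.9% of all tested genes called. With the length and GC offsets 21 were higher and 11 lower, beside 23.9%. Without untransfected replicate 3 there were 14 and 5, beside 14.8%. Of the 29 genes called, 16 stayed called in the same direction in that fit. The number was 19 without untransfected replicate 1, 20 without replicate 2 and 23 with the length and GC offsets. Values under the alternatives are not given for single genes of the lists. Genes called below passed edgeR's quasi-likelihood test with an adjusted p of 0.00107 (CDKN1A) to 0.0457 (TGFBR2). The lists were chosen with earlier results of these data known. Their p-values against untransfected cells are therefore a description and support nothing further.

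Among 25 tested ligands, 2 rose and 4 fell. TGFB1, the founding member of the family, rose from 86.1 ± 1.31 CPM in untransfected cells to between 109.8 and 188.9 in the 12 transfected libraries (0.87 ± 0.13). BMP6, which controls hepcidin in liver, rose by 0.70 ± 0.16, from 25.8 ± 3.07 CPM to a median of 44.3, with overlap between the 2 sides. BMP2 fell from 4.4 ± 0.22 CPM to a median of 2.35 (-0.78 ± 0.17). GDF1, which shares its locus with CERS1 so that reads may be split, was at -0.63 ± 0.20, with overlap between the 2 sides. The other ligands called lower were GDF7 and GDF10, named after their values were seen, and GDF10 had 26 counts at most in a library.

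Of 16 receptors and co-receptors, 1 rose and 3 fell. The type I receptor genes TGFBR1 (-0.75 ± 0.24) and BMPR1A (-0.62 ± 0.19) and the type II receptor gene TGFBR2 (-0.66 ± 0.22) were lower. TGFBR2 had 168.9 ± 37.5 CPM in untransfected cells and a median of 113.2 in transfected libraries. Untransfected and transfected ranges overlapped for all 3. RGMA, a BMP co-receptor, rose by 1.28 ± 0.36, although weak-cloaked replicate 1, at 2.4 CPM, lay below the untransfected range of 2.52 to 3.22. Extracellular binding proteins were called in 2 of 23 cases, both higher. These were the BMP antagonist NBL1, from 44.6 ± 2.53 CPM to between 52 and 102.2 (0.85 ± 0.15), and the proteoglycan BGN (0.97 ± 0.23). FSTL1, a further follistatin-like protein, had 16.5 ± 2.27 CPM and a transfected median of 21.2, and did not pass (0.35 ± 0.14, adjusted p = 0.0793 in edgeR's test).

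Of 7 further SMAD genes 1 was called. SMAD6, the inhibitory SMAD of the BMP branch, fell from 10.6 ± 2.49 CPM to a median of 4.76 (-1.06 ± 0.29), with overlap between the 2 sides. The activin-responsive SMAD2 (43.3 ± 5.26 CPM) and SMAD3 (85.4 ± 8.28 CPM) had log2 fold changes of -0.07 ± 0.11 and 0.04 ± 0.11. Of 25 intracellular regulators 3 rose and 5 fell. The SMAD4-binding ubiquitin ligase TRIM33 (-1.35 ± 0.31), the endosomal adaptor ZFYVE16 (-1.27 ± 0.24) and the nuclear envelope SMAD antagonist LEMD3 (-0.82 ± 0.22) fell. Untransfected and transfected ranges overlapped for TRIM33 and LEMD3 but not for ZFYVE16. PPP1R15A, which can direct a phosphatase to type I receptors and is better known as a gene of the integrated stress response, rose by 1.81 ± 0.39.

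Of 21 genes that serve as SMAD targets in other cells, 5 rose and 3 fell. SNAI1, a repressor of epithelial genes, rose from 9.44 ± 0.34 CPM to between 14.4 and 55.8 (1.90 ± 0.30). JUNB, an AP-1 subunit (1.26 ± 0.31), and the cell cycle inhibitor CDKN1A (1.24 ± 0.18) rose too, and both respond to many other signals. ATOH8, a BMP target in liver, fell from 10.3 ± 2.6 CPM to a median of 3.74 (-1.42 ± 0.24). The BMP targets ID1, ID2 and ID3 and the hormone gene HAMP were not called. HAMP, the hepcidin gene, had 125.3 ± 34 CPM in untransfected cells and a median of 82.2 in transfected libraries. The list's median was -0.14 beside -0.05 for all genes. For 15 of the 19 genes named by rule across the lists, weak-cloaked replicate 1 lay outside the range of the other 11 transfected libraries, beside 40.4% of all tested genes. These 19 genes were picked for large called changes against untransfected cells.

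**Figure D4:**
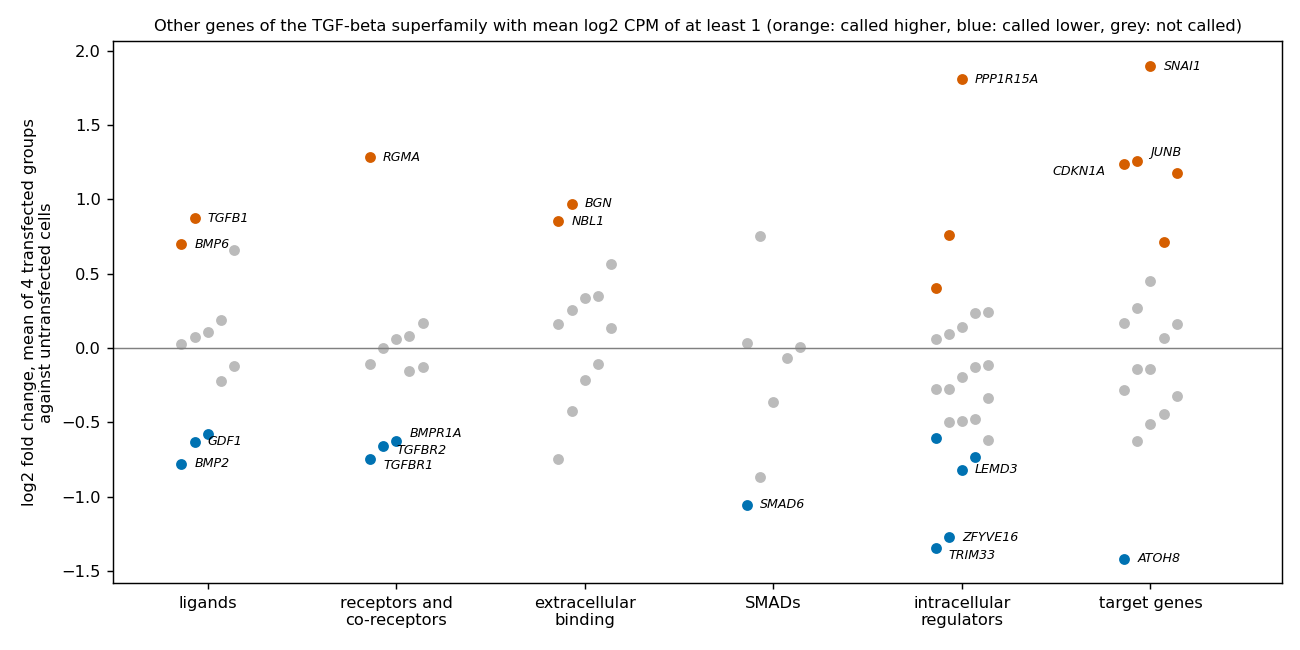
Log2 fold change of transfected (mean of 4 groups) over untransfected cells (vertical axis) for genes of the 6 lists whose log2 CPM averaged 1 or more; each point is a gene, orange called higher, blue called lower, grey not called. Points lie on both sides of 0 in all 6 lists, from -1.42 (ATOH8) to 1.90 (SNAI1).

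No gene of these lists passed the test for any difference among the 4 transfected groups in edgeR. DESeq2 called 1, GDF10, from counts of 0 in all 3 medium-cloaked libraries and 7 to 18 in non-cloaked and strong-cloaked ones (adjusted p = 0.0273 in DESeq2, 0.992 in edgeR).

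The genes most like FST in size and shape of their profile were found by the root mean square difference of log2 CPM, centred over the 15 libraries, among the 11872 genes whose log2 CPM averaged 1 or more. The closest were NNT-AS1 (0.46), FAIM (0.48), ANGEL2 (0.48), FAM217B (0.49) and IGFBP1 (0.50), beside a median of 1 over all these genes. IGFBP1, which encodes a secreted binding protein of insulin-like growth factors, had 1275 ± 189 CPM in untransfected and 311.9 to 636.5 CPM in transfected libraries. Their log2 fold changes, -1.64 (FAM217B) to -1.25 (ANGEL2), were smaller than the -2.36 of FST. INHBE had closer neighbours, TNNC1 (0.09), S100A11 (0.09), S100A10 (0.10), CACNA2D4 (0.11) and LY6D (0.11), beside a median of 0.46. TNNC1 had 38.1 ± 3.92 CPM in untransfected cells and 51.6 to 78.9 CPM in transfected libraries.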

How the data were processed

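RNA came from HepG2 cells lysed in Trizol, 15 libraries in all. Per the labels' protocols, poly(A)-selected, strand-specific libraries were sequenced in paired reads. The authors deposited raw read counts per gene symbol. The submitters' processing notes name HISAT2, HTSeq, DESeq2 1.46.0, R 4.4.2 and GRCh38. Annotation release, strand setting and any row filter were not given in the sources used here.

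The deposited counts were fitted with edgeR 4.0.16 (R 4.3.3): filterByExpr at its defaults, TMM scaling, and a robust quasi-likelihood fit with 1 mean per group over all 15 libraries. P-values were adjusted by Benjamini-Hochberg over 18380 genes and called below 0.05. RPKM used the exon length in GENCODE release 29 on GRCh38. The procedure was tested on simulated data. No 2 replicates agreed within sampling noise.

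The members and lists were chosen with earlier results of these data known. Named genes are the members, up to 4 called genes per list (largest log2 fold change, mean log2 CPM of at least 1), and the 5 profiles closest to FST and INHBE. From the lists, INHA, INHBC, FSTL1, SMAD2, SMAD3, ID1, ID2, ID3, HAMP, GDF7 and GDF10 were named outside this rule. Alternatives were DESeq2 1.42.0, RLE and total-count scaling, no filter, 50 counts in 3 libraries, a replicate block, the compared groups alone, each library left out and, added after seeing the data, offsets for transcript length and GC content.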

Additional observations from a re-analysis of the deposited data

How the results depend on the processing

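Fitting only the compared groups gave 2 members called in the non-cloaked, 0 in the weak-cloaked and 6 in the medium-cloaked group against untransfected cells, in place of 4, 3 and 3, beside 5.84%, 0.023% and 20.6% of all genes tested. For the pooled comparison that fit is the same as the one reported and was not run. With each library left out in turn, the counts of members called were 3 to 6 for the pooled comparison, 2 to 6, 1 to 5, 2 to 5 and 3 to 5 for the non-, weak-, medium- and strong-cloaked groups, 0 to 0 in each comparison among transfected groups, and 19 to 41 and 0 to 0 for the wider lists (pooled comparison and any difference among transfected groups). The share of all genes called ranged over the same fits from 11.4% to 31.5% in the pooled comparison, and from 0.631% to 16.5%, 0.604% to 21.3%, 4.16% to 20.1% and 3.86% to 22.3% in the 4 groups, highest in each without weak-cloaked replicate 1. The pooled members' count reached its lowest without untransfected replicate 3. The non-cloaked count was 2 without untransfected replicate 1 or 3 or non-cloaked replicate 2. The weak-cloaked count was 5 without weak-cloaked replicate 1 and 1 without weak-cloaked replicate 2 or 3, and the medium-cloaked count was 5 without weak-cloaked replicate 1. The strong-cloaked count was 3 without untransfected replicate 3 or strong-cloaked replicate 2. The cause was not tested. DESeq2 called 1 listed gene among transfected groups in place of 0. By correlation of deviations, replicate numbers shared by the titles showed little pairing. Of 30 same-numbered pairs 2 had a correlation over 0.1, and 7 of 15 libraries were closest to their own number. Replicate 1 had the lowest value on the first principal component in each transfected group, but not among untransfected libraries. Its values were -7.81 (non-cloaked), -51.63 (weak), 16.96 (medium) and 11.85 (strong). The source of this order was not tested. With the replicate block, 6 members were called in the pooled comparison and 34 listed genes in place of 29. The share of all genes called was 23.4% in place of 23.1%. In the non- and weak-cloaked groups that share was 7.75% and 4.44%, in place of 6.5% and 3.29%. In the pooled comparison no called member's log2 fold change changed sign under the alternatives run. Members' fold changes in the single groups against untransfected cells were not recomputed under every alternative. Counts below about 40 per library, as for INHBA, limit what can be seen.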
